A study of Arabidopsis thaliana with 3 samples.

Results

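The mRNAs described here encode the small subunit of Rubisco, the activase of Rubisco and enzymes of the Calvin cycle. They are 10 nuclear genes chosen by name, namely RBCS1A (AT1G67090), RBCS1B (AT5G38430), RBCS2B (AT5G38420), RBCS3B (AT5G38410), RCA (AT2G39730), GAPA (AT3G26650), GAPB (AT1G42970), PRK (AT1G32060), SBPASE (AT3G55800) and CP12-2 (AT3G62410). Every read assigned to one of these loci was taken, which gave 5831 of 442916 reads and 10 of 16577 loci. The poly(A) tails were measured by TAIL-seq on total RNA from flowers of wild-type Arabidopsis thaliana (Col-0), grown on soil in long days, and the study's methods describe the tissue as flower buds. In this assay an adapter joined to the RNA 3′ end lets paired reads give both the identity of the mRNA and the length and last nucleotides of its tail. The 3 libraries are biological replicates of 1 untreated group with no transgene or mutant allele. The libraries therefore allow comparisons between mRNAs and between kinds of tails, not between genotypes.

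Rubisco fixes CO2 in the chloroplast and is built of large subunits encoded in the plastid genome and small subunits encoded by the RBCS genes in the nucleus. The Calvin cycle reduces the fixed carbon and regenerates the acceptor, ribulose bisphosphate. These mRNAs are translated in the cytosol, and like other mRNAs they carry a poly(A) tail that is shortened during their life. Short oligo(A) tails can receive uridines (U), mainly by the uridylyltransferase URT1 in Arabidopsis. A tail is called uridylated below when at least 1 U was read after the As.

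Replicates 1, 2 and 3 held 222681, 113458 and 106777 reads. According to the read names, replicate 1 was sequenced on a different run from the other libraries, so replicate and run cannot be told apart. Among all mRNAs outside the 10 genes, 7.48%, 9.97% and 11.6% of reads were uridylated in replicates 1, 2 and 3 (mean 9.70% ± 2.09 SD, n = 3). The median tail without added nucleotides was 26, 22 and 22 As. A list of 22 mRNAs, drawn from those that the study also followed by 3′RACE-seq and AT2G45160, took 1.58%, 29.6% and 23.4% of reads. The levels below were therefore computed without these 3′RACE-seq mRNAs except where a plot says otherwise. All 7 floral organ identity genes looked up were detected, with 553 reads in total, and 4 of 4 root and seed marker genes had 0 reads, which allows up to 3 reads each.

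The RBCS genes are similar in sequence, and this decides what can be said of each of them. RBCS1A lies on chromosome 1 (minus strand, TAIR10.1), and the annotated mRNA used for it spans chr1:25048158-25049667. Positions of the other RBCS genes are likewise those of the annotated mRNA used, which need not be the longest. RBCS3B (chr5:15377173-15378642), RBCS2B (chr5:15380907-15382071) and RBCS1B (chr5:15384085-15385247) lie next to each other on the minus strand of chromosome 5. The coding sequences of RBCS1B, RBCS2B and RBCS3B were 96.7% to 97.3% identical to one another, and RBCS1A was 89.9% to 90.1% identical to them. The first read had 41 cycles. Of all 41-base windows of the coding sequence, 59.5% in RBCS1B, 51.4% in RBCS2B, 48.4% in RBCS3B and 6.16% in RBCS1A also occurred in another RBCS gene. Sharing was lower over the whole mRNA. For pairs of the chromosome 5 genes it was 29.4% to 40.5% of coding windows but 12.8% to 25.6% of mRNA windows. The following stretches of coding sequence (bases 454 to 528 of the coding sequence, within 1 exon, RefSeq TAIR10.1) are shown because they hold the 44 bases common to all 4 genes. They were read on the minus strand from chr1:25048480-25048554, chr5:15384368-15384442, chr5:15381221-15381295 and chr5:15377519-15377593, and capitals mark the positions at which the genes differ.
RBCS1A: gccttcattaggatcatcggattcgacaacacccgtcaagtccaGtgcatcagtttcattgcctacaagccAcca
RBCS1B: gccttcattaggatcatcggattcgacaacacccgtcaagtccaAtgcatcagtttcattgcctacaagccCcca
RBCS2B: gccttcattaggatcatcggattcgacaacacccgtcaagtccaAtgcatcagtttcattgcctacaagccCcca
RBCS3B: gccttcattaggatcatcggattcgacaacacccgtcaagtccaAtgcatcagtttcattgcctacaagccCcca
RBCS1A differed from the others at 2 of these 75 positions, and RBCS1B, RBCS2B and RBCS3B were identical. A first read of 41 cycles that lay inside the common 44 bases would be the same for all 4 genes.

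The last 60 coding bases of the 3 genes on chromosome 5, up to the stop codon, are shown because here RBCS1B can be told from its neighbours whereas RBCS2B and RBCS3B cannot. They lie at chr5:15384350-15384409, chr5:15381203-15381262 and chr5:15377501-15377560, on the minus strand, and capitals again mark differing positions.
RBCS1B: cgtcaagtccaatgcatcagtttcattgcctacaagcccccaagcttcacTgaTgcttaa
RBCS2B: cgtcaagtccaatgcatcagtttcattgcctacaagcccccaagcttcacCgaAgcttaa
RBCS3B: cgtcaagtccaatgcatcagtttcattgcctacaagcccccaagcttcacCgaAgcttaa
Of these 60 bases, 2 differed between RBCS1B and each neighbour, and none differed between RBCS2B and RBCS3B.

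The authors' assignment gave many RBCS reads to several genes. With every read counted once, the family had 2406, 218 and 303 reads in replicates 1, 2 and 3, and 1766, 46 and 77 of them were given to more than 1 RBCS gene. The shared part was thus 73.4% in replicate 1 but 21.1% and 25.4% in the other libraries. RBCS1B depended on shared reads almost entirely, with 1848 of its 1857 reads shared and 0, 3 and 6 reads of its own in replicates 1, 2 and 3. RBCS3B had the most reads of its own, 280, 140 and 166. RBCS1A had 207, 26 and 42 reads of its own, and RBCS2B had 153, 3 and 12. The most frequent combinations were RBCS1B with RBCS3B (1109 reads over the libraries) and all 3 genes of chromosome 5 (680 reads), and 52 reads were given to all 4 genes. Reads outside the RBCS family were also shared more often in replicate 1, at 2.43% against 0.940% and 1.15%.

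The level of the RBCS mRNAs depended on whether shared reads were counted. Per 100000 reads, without the 3′RACE-seq mRNAs, the family had 1098 reads in replicate 1, 273 in replicate 2 and 371 in replicate 3. Replicate 1 was thus 3.41 times the mean of the other libraries. Counting only reads of 1 gene gave 292, 215 and 276, a ratio of 1.19. These ratios carry a pseudocount of 0.5 reads per 100000. For single genes the ratio was 10.4 for RBCS1B, 9.79 for RBCS2B, 3.51 for RBCS3B and 2.53 for RBCS1A. It was 1.76 for RCA, 1.48 for GAPA and 0.854 for GAPB, with a median over all mRNAs tested of 1.11 (5th to 95th percentile 0.307 to 4.29). The order of RBCS read numbers was therefore not the same in the libraries, and counts of RBCS1B and RBCS2B describe shared reads more than those genes.

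**Figure D1:**
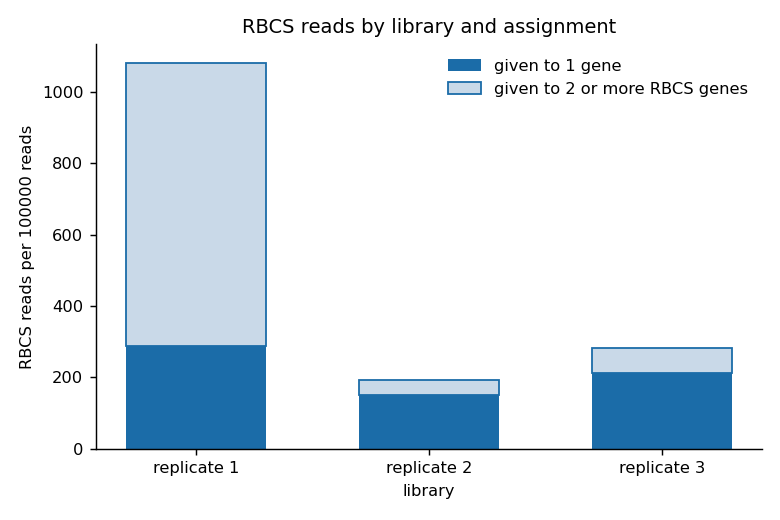
RBCS reads per 100000 of all reads of each library (3′RACE-seq mRNAs included), each read counted once, split into reads given to 1 gene (dark) and to 2 or more RBCS genes (light). Reads of 1 gene amounted to 287, 152 and 212 per 100000 in replicates 1, 2 and 3, and shared reads to 793, 40.5 and 72.1.

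The uridylation of the RBCS mRNAs was low in each library. The family had 55 of 2406 reads uridylated in replicate 1 (2.29%), 7 of 218 in replicate 2 (3.21%) and 16 of 303 in replicate 3 (5.28%), with a mean of 3.59% ± 1.53 (SD, n = 3). All other mRNAs had 7.48%, 9.97% and 11.6%, and the family was below them in each library. At the percentages of all other mRNAs, 180, 21.7 and 35.2 uridylated reads would correspond to the family's depth in replicates 1, 2 and 3. Both shared reads and reads of 1 gene lay below all other mRNAs in each library. Among reads given to 1 gene, 1.72%, 2.91% and 4.42% were uridylated, and among shared reads 2.49%, 4.35% and 7.79%. Shared reads were higher in each of the 3 libraries, with overlapping Wilson intervals, and the difference was not tested.

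RBCS1A, an isoform of the small subunit, had 6 of 255, 0 of 27 and 1 of 47 reads uridylated in replicates 1, 2 and 3. The 0 of 27 reads allows a share of up to 11.1%, so replicate 2 alone says little about this gene. RBCS1B had 43 of 1734 reads uridylated (2.48%), 1 of 47 (2.13%) and 6 of 76 (7.89%). RBCS2B, a further isoform, had 22 of 882 (2.49%), 1 of 21 (4.76%) and 2 of 45 (4.44%). RBCS3B, the isoform with the most reads of its own, had 48 of 2039 (2.35%), 7 of 186 (3.76%) and 14 of 243 (5.76%). All 12 values, of 4 genes in 3 libraries, lay below those of all other mRNAs in the same library. The shared reads enter several of these genes, so the values of RBCS1B, RBCS2B and RBCS3B are not independent of one another.

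RCA, the activase that removes inhibitory sugar phosphates from Rubisco, had 63 of 1002 reads uridylated in replicate 1 (6.29%), 22 of 173 in replicate 2 (12.7%) and 38 of 247 in replicate 3 (15.4%). Its mean was 11.5% ± 4.68 (SD, n = 3), below all other mRNAs in replicate 1 and above them in replicates 2 and 3. GAPA and GAPB encode the subunits of the chloroplast glyceraldehyde-3-phosphate dehydrogenase, the reducing step of the cycle. GAPA had 24 of 572 (4.20%), 7 of 128 (5.47%) and 20 of 157 (12.7%), and was above all other mRNAs in replicate 3. GAPB had 8 of 171 (4.68%), 4 of 63 (6.35%) and 6 of 85 (7.06%), below all other mRNAs in each library.

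The remaining mRNAs were read less often. PRK, phosphoribulokinase, which makes the CO2 acceptor, had 2 of 43, 1 of 21 and 3 of 13 reads uridylated. SBPASE, sedoheptulose-1,7-bisphosphatase of the regenerative phase, had 2 of 82, 0 of 6 and 4 of 18. CP12-2, a small protein that joins PRK and glyceraldehyde-3-phosphate dehydrogenase into an inactive complex, had 4 of 81, 2 of 21 and 1 of 21. For PRK and SBPASE, replicate 3 was far above the other libraries (23.1% and 22.2%), on 13 and 18 reads, and their Wilson 95% intervals reached from 8.18 to 50.3% and up to 45.2%. No order could be drawn between PRK, SBPASE and CP12-2 at this depth.

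**Figure D2:**
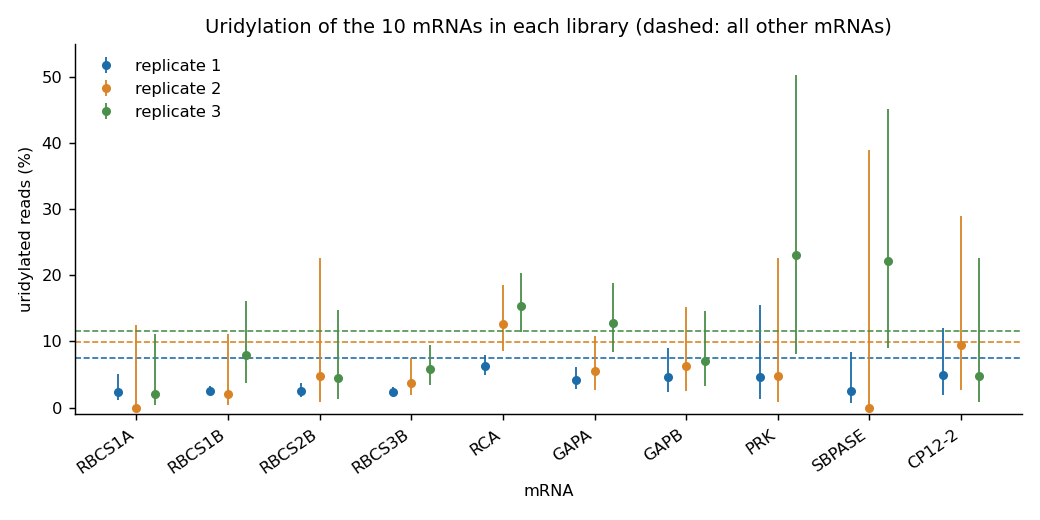
Percentage of reads uridylated for each mRNA (x axis) in replicates 1, 2 and 3, with Wilson 95% intervals for counting error, and dashed lines for all other mRNAs of the same library (7.48%, 9.97% and 11.6%). The 4 RBCS mRNAs lie below the line of their library in each case, RCA lies below it in replicate 1 and above it in replicates 2 and 3, and intervals are widest for PRK and SBPASE.

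The uridylation of each mRNA with at least 20 pooled reads was set against all other mRNAs in a Cochran-Mantel-Haenszel test (two-sided), stratified by library and adjusted after Benjamini-Hochberg over 3439 mRNAs. Of the 10 mRNAs, 5 were called below (RBCS1A, RBCS1B, RBCS2B, RBCS3B and GAPA) and 0 above, where 5.76% of all mRNAs tested were called below and 9.51% above. The mRNAs tested had a median of 42 reads, whereas the 5 called had 329 to 2468, so these shares are not matched for depth. With a minimum of 50 pooled reads, 14.5% of 1474 mRNAs were called below and 8.34% above, beside 5 and 0 of the 10. The odds ratio was 0.243 for RBCS1A (adjusted p = 0.00112), 0.332 for RBCS1B (1.33e-13), 0.325 for RBCS2B (2.82e-07) and 0.327 for RBCS3B (2.26e-19). GAPA was at the threshold, with an odds ratio of 0.673 and adjusted p = 0.0493. At an unadjusted p under 0.05, 6 were below, GAPB being the sixth (odds ratio 0.601, adjusted p = 0.190), and 0 were above. With reads of several genes removed, 4 of the 9 mRNAs that could be tested were below, RBCS1A, RBCS2B, RBCS3B and GAPA, at adjusted p of 0.00386, 0.0407, 4.79e-06 and 0.0481.

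The test counts reads and does not allow for spread between libraries. With libraries as the unit (limma on the logit of each library, 8 of the 10 mRNAs tested), 1 was called below, RBCS1A, and 0 above, against 8.21% and 1.64% of the 609 mRNAs tested. The difference in logit (here the log2 of the odds) from the library was -2.08 ± 0.371 (SE) for RBCS1A (adjusted p = 0.0396). It was -1.39 ± 0.351 for RBCS3B (0.0573), -1.31 ± 0.404 for RBCS1B (0.0799) and -1.13 ± 0.374 for RBCS2B (0.0898). Without replicate 1, which holds 4357 of the 5831 reads, 1 mRNA was called below in the test on reads, RBCS3B (log2 odds ratio -1.25), against 4.79% of the 1523 mRNAs tested. The log2 odds ratios of the mRNAs no longer called were -3.19 for RBCS1A, -1.39 for RBCS2B, -1.04 for RBCS1B and -0.22 for GAPA.

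In order of the percentage over pooled reads, RBCS1A was lowest at 2.13% (Wilson 95% interval 1.03 to 4.33%). RBCS2B followed at 2.64% (1.79 to 3.86%), RBCS1B at 2.69% (2.05 to 3.53%) and RBCS3B at 2.80% (2.22 to 3.52%), and the intervals of all 4 overlapped. These percentages depend on the share of reads from replicate 1, where the uridylation of all other mRNAs was lowest. GAPB, SBPASE, CP12-2 and GAPA came next, between 5.64% and 5.95%, again with overlapping intervals, followed by PRK at 7.79% and RCA at 8.65% (7.30 to 10.2%). The median over the 10 mRNAs was 5.65%, and over all 3439 mRNAs tested it was 8% (quartiles 4.20 and 14.3%). With equal weight for each library, RBCS1A was again lowest (1.49% ± 1.30) and RCA highest (11.5% ± 4.68), but the order between them changed. RBCS2B, RBCS3B and RBCS1B were at 3.90% ± 1.23, 3.96% ± 1.71 and 4.17% ± 3.23, GAPB and CP12-2 at 6.03% ± 1.22 and 6.41% ± 2.6998, and GAPA, SBPASE and PRK at 7.47% ± 4.61, 8.22% ± 12.2 and 10.8% ± 10.6 (SD, n = 3 for each). The means of RBCS1A and RBCS2B differed by more than either SD, but in replicates 2 and 3 they rest on few uridylated reads. These were 0 of 27 and 1 of 47 for RBCS1A, and 1 of 21 and 2 of 45 for RBCS2B. The Wilson 95% intervals of RBCS1A and RBCS2B overlapped in each library, so these genes could not be ordered. The other neighbours in this order differed by less than the larger SD of each pair. On pooled reads RBCS1A was at percentile 10.4 of the mRNAs tested and RCA at percentile 53.4.

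Tail length separated RCA from the RBCS family. The median tail without added nucleotides was 37, 28 and 31 As for RCA in replicates 1, 2 and 3, against 25, 21 and 22 for the RBCS family. The difference of 12, 7 and 9 As had a mean of 9.33 ± 2.52 (SD, n = 3), with RCA longer in each library. RCA was also longer than GAPA, by 12, 8 and 10 As. With 3 libraries, an exact sign-flip test cannot go below p = 0.25, which is the value it gave for each of the 10 differences compared between groups of these mRNAs, before and after adjustment. Tails of more than 25 As made up 80.6%, 62.9% and 68.9% of unmodified RCA tails, 47.4%, 31.9% and 35.9% of RBCS tails, and 52.0%, 37.7% and 37.6% of those of all other mRNAs.

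Among the small subunit mRNAs, RBCS1A had medians of 28, 22 and 21 As, RBCS1B 24, 20 and 20, RBCS2B 24, 19 and 19, and RBCS3B 24, 21 and 23. RBCS2B was shorter than the library in each replicate and RBCS1A was not. GAPA had 25, 20 and 21 As and GAPB 30, 29 and 23, so the mRNAs of the subunits of one enzyme differed by 5, 9 and 2 As. CP12-2 had 27, 26 and 25 As on 76, 19 and 20 unmodified reads. Its medians were close to one another, but the quartiles were 19 and 33 As in replicate 2 and 21 and 34 As in replicate 3. PRK had 24, 18.5 and 21.5 As on 40, 20 and 10 unmodified reads, and SBPASE had 26, 20 and 27 on 79, 6 and 14.

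**Figure D3:**
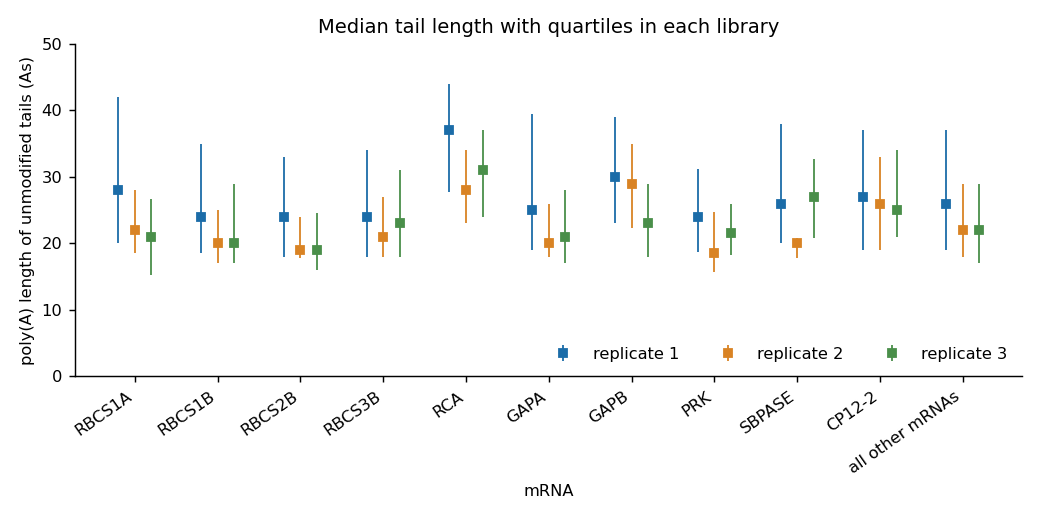
Median poly(A) length of tails without added nucleotides (squares) with quartiles (lines) for each mRNA and for all other mRNAs in replicates 1, 2 and 3. RCA has the longest median in replicates 1 and 3 (37 and 31 As) and stands at 28 As in replicate 2, 1 A below GAPB. Most RBCS medians lie at or below those of all other mRNAs.

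Tail length was tested with limma on the difference from the library median, for mRNAs with at least 20 unmodified reads in each library. This left 7 of the 10 mRNAs, without PRK, SBPASE and CP12-2. None was called, 0 longer and 0 shorter, where 1.29% and 0.552% of the 543 mRNAs tested were called. RCA was 8.67 ± 1.20 As (SE) longer than the library (adjusted p = 0.102) and was at percentile 98.2 of the differences. The difference was -2.67 ± 0.458 As for RBCS2B and -2.00 ± 0.377 As for RBCS1B (adjusted p = 0.138 for both). At an unadjusted p under 0.05, RCA was longer and RBCS1B and RBCS2B were shorter. On mean in place of median lengths, RCA was called longer by 5.61 As (adjusted p = 0.0216). A rank-sum test on reads, stratified by library (van Elteren), called RCA and GAPB longer and RBCS1B, RBCS2B and RBCS3B shorter, but it called 20.1% of all mRNAs longer and 21.4% shorter.

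The next comparison was where on the tail the Us were found. The study separates oligo(A) tails of 10 to 25 As from longer tails and from tails of under 10 As, called excessively deadenylated. RCA had 17.4%, 21.4% and 33.7% of its tails of 10 to 25 As uridylated in replicates 1, 2 and 3, on 219, 70 and 95 reads, with a mean of 24.2% ± 8.50 (SD, n = 3). The RBCS family had 3.63%, 4.70% and 7.22% in this class, on 1267, 149 and 194 reads, with a mean of 5.18% ± 1.84 (SD, n = 3). All other mRNAs had 12.4%, 13.7% and 16.0%. RCA was above all other mRNAs and the RBCS family below them in each library. On tails of more than 25 As, RCA had 3.08%, 5% and 4%, the RBCS family 0.538%, 0% and 0%, and all other mRNAs 1.61%, 1.96% and 1.91%.

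Within each mRNA, the share uridylated at 10 to 25 As was compared with that on longer tails by the same kind of test. Of the 10 mRNAs, 5 were called higher at 10 to 25 As, where 18.4% of the 1429 mRNAs tested were called. These were RBCS1B, RBCS3B, RCA, GAPA and GAPB, and 0 were called lower (0% of all tested, and 0 of the 10 at an unadjusted p under 0.05). More uridylation at 10 to 25 As was general, with a median log2 odds ratio (where finite) of 2.29 over all mRNAs tested. Those of the 5 called ranged from 1.49 (GAPA) to 4.74 (GAPB). With a minimum of 10 reads per class, 4 of the 10 were called, against 8.09% of 2708 mRNAs. Over pooled reads the shares were 22.1% and 3.40% for RCA (adjusted p = 3.93e-22), 4.24% and 0.476% for RBCS3B (3.10e-06), 4.11% and 0.493% for RBCS1B (9.72e-05), 11.5% and 0.559% for GAPB (0.00109), and 7.99% and 2.54% for GAPA (0.0422). CP12-2 had 7 of 60 tails of 10 to 25 As and 0 of 61 longer tails uridylated (adjusted p = 0.0875). Without replicate 1, 2 of the 6 mRNAs still deep enough were called, against 13.5% of the 496 mRNAs tested. GAPA lost its call in this test without replicate 1 (adjusted p = 0.376) and without replicate 3 (0.184). It also did so with a minimum of 10 reads per class (0.0762).

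Of the 123 uridylated RCA tails, 85 had 10 to 25 As (69.1%, Wilson 95% interval 60.5 to 76.6%) and 35 had more than 25 As (28.5%, 21.2 to 37.0%). Of the 78 uridylated RBCS tails, 67 had 10 to 25 As (85.9%, 76.5 to 91.9%) and 6 had more than 25 As (7.69%, 3.57 to 15.8%). All other mRNAs had 84.2% and 7.94%. The uridylated tails of RCA had a median of 23, 20.5 and 20 As in replicates 1, 2 and 3, against 17, 15 and 15 for the RBCS family and 15 in each library for all other mRNAs.

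In finer bins of length, RCA and the RBCS family were compared with all other mRNAs at the same number of As. Over pooled reads, 25 of 101 RCA tails of 19 to 21 As were uridylated (24.8%, Wilson 95% interval 17.4 to 34.0%), against 7 of 418 RBCS tails (1.67%, 0.814 to 3.42%) and 6.65% for all other mRNAs. At 22 to 25 As, the percentages were 16.4% for RCA, 1.17% for the RBCS family and 3.34% for all other mRNAs. RCA was above all other mRNAs in both bins in each library, with 16.1%, 25% and 47.8% against 5.66%, 7.15% and 7.86% at 19 to 21 As. At 13 to 15 As, where 30.2% of all other tails were uridylated, RCA had 27.9% (16.7 to 42.7%) and the RBCS family 8.85% (5.80 to 13.3%). GAPA had 43.8% uridylated at 10 to 12 As (28.2 to 60.7%, 14 of 32 reads) and 0 of 122 at 19 to 21 As (0 to 3.05%), where all other mRNAs had 6.65%. At 10 to 12 As its interval overlapped that of RCA (6 of 13 reads, 23.2 to 70.9%) and at 19 to 21 As that of the RBCS family. The bins under 13 As held 13 or fewer reads of RCA each.

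**Figure D4:**
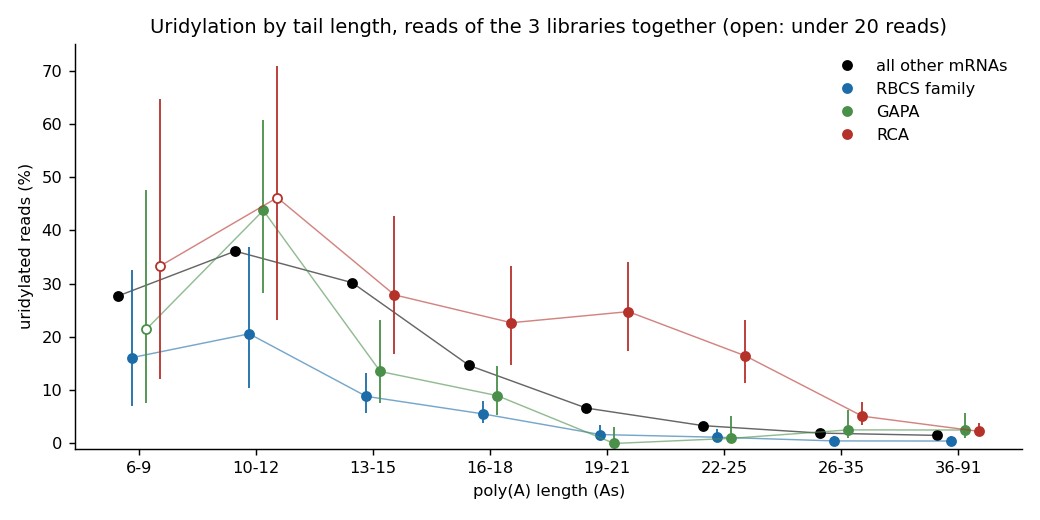
Percentage of reads uridylated (y axis) by poly(A) length (x axis) for the RBCS family, GAPA, RCA and all other mRNAs, reads of the 3 libraries together, with Wilson 95% intervals (open circles have under 20 reads). Between 19 and 25 As RCA lies above all other mRNAs (24.8% against 6.65% at 19 to 21 As) and the RBCS family below them (1.67%).

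Because uridylation depends on length, the comparison with all other mRNAs was repeated at equal poly(A) length, with library and length as strata. RCA was then called above, with an odds ratio of 2.31 (adjusted p = 1.03e-15), and the 5 mRNAs called below were again RBCS1A, RBCS1B, RBCS2B, RBCS3B and GAPA. In this test 4.13% of all mRNAs were called below and 7.82% above. RCA had 63, 22 and 38 uridylated reads where all other mRNAs of equal length would give 36.1, 9.19 and 15.3, and the ratios of 1.74, 2.39 and 2.49 were above 1 in each library. Over the libraries this was 123 against 60.6 reads, a ratio of 2.03, whereas at the library percentage alone 121 would be given. RCA was called above without each replicate in turn, at adjusted p of 1.83e-12, 1.20e-11 and 2.29e-08 without replicates 1, 2 and 3.

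The RBCS family had 78 uridylated reads against 216 at equal length, a ratio of 0.361, with 0.335, 0.353 and 0.506 in replicates 1, 2 and 3. GAPA had 51 against 77.9 reads (0.655), with 0.537, 0.577 and 0.948 in the libraries. GAPB had 18 against 21.9 (0.823) and 29.0 at the library percentage, and it was not called at equal length (adjusted p = 0.815). At equal length RBCS1A had adjusted p = 0.00651 and GAPA 0.0104. Without replicate 1, 1 mRNA was called below in this test too, RBCS3B, against 2.95% of all mRNAs tested. With shared reads removed 3 of 9 were, RBCS1A, RBCS3B and GAPA, and RBCS2B was not (log2 odds ratio -1.91 against -1.70 with all its reads, adjusted p = 0.110).

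**Figure D5:**
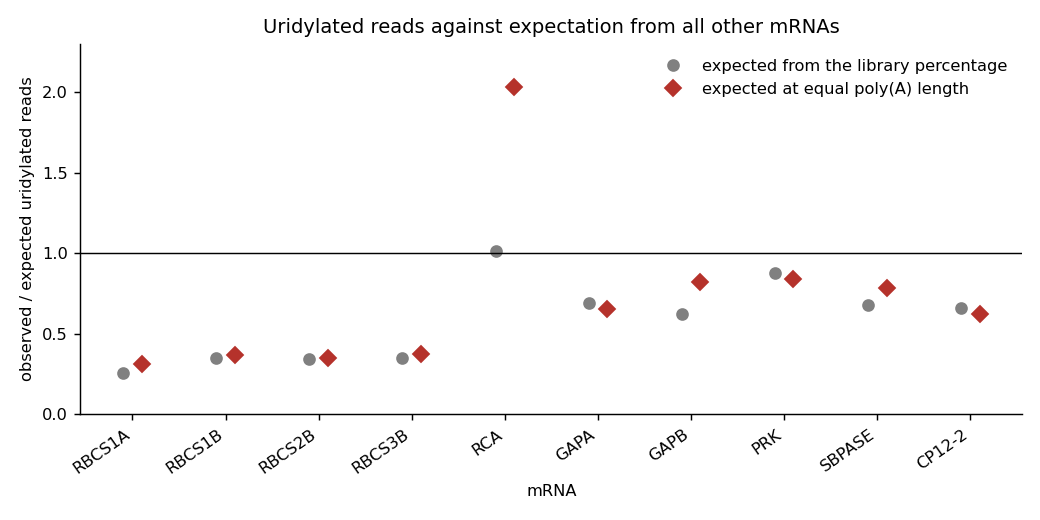
Observed uridylated reads of each mRNA over the 3 libraries divided by the number expected from all other mRNAs, at the percentage of each library (circles) and at equal poly(A) length (diamonds), with a line at 1. RCA moves from 1.02 to 2.03, whereas the 4 RBCS mRNAs stay between 0.257 and 0.371.

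The extensions were short. In the RBCS family, 67 of 78 uridylated tails carried a single U and 11 carried 2, and 0 of 78 carried 3 or more, which allows a share of up to 3.85%. RCA carried a single U on 75 of 123 tails, 2 on 29 and 3 or more on 19 (15.4%, Wilson 95% interval 10.1 to 22.9%), with up to 5, 7 and 8 Us in replicates 1, 2 and 3. All other mRNAs carried 3 or more on 8.11%. By library, RCA had 3 or more Us on 7.94%, 13.6% and 28.9% of uridylated tails, against 5.82%, 9.78% and 9.63% for all other mRNAs. The Wilson 95% intervals of RCA held the value of all other mRNAs in replicates 1 and 2 (3.44 to 17.3% and 4.75 to 33.3%). In replicate 3 the interval lay above it (17.0 to 44.8%, 11 of 38 tails). The share of single Us was 83.5% ± 11.3 for the RBCS family, 80.2% ± 5.36 for GAPA, 59.4% ± 13.1 for RCA and 64.5% ± 3.31 for all other mRNAs (SD, n = 3 for each), and the ranges of RCA and of the RBCS family did not overlap (44.7% to 69.8% and 71.4% to 93.8%). The lowest RBCS value was 5 of 7 tails in replicate 2 (Wilson 95% interval 35.9 to 91.8%) and the highest RCA value, in replicate 1, had an interval of 57.6 to 79.8%, so the gap lay within counting error.

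Tails ending in an added G or C were counted in the same way. RCA had 3, 0 and 0 such tails beside its 63, 22 and 38 uridylated ones. The RBCS family had 19, 1 and 0 beside 55, 7 and 16, a ratio of uridylated to G- or C-ended tails of 2.89 in replicate 1 and 7 in replicate 2. For all other mRNAs this ratio was 12.2, 10.6 and 13.7. In replicate 1 the uridylated RBCS reads were thus closer in number to G- or C-ended reads than those of all other mRNAs were. As a share of all reads, G- or C-ended tails made up 0.790%, 0.459% and 0% in the RBCS family (the last allowing up to 0.990%). All other mRNAs had 0.616%, 0.939% and 0.851%, so the family was slightly above them in replicate 1 only. Whether G- or C-ended tails reflect a background of the assay, and its part in the RBCS values, were not tested.

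Other genes of carbon fixation were looked up for comparison, without a test of the lists. Of 14 other Calvin cycle genes, 10 had enough reads, of which 1 was called below and 1 above, with a median of 7.91% uridylated. Over all mRNAs tested 5.76% were called below and 9.51% above, so these counts are near the background. PDE345 (AT2G01140), a plastid aldolase, was below, with 2.37%, 2.22% and 9.09% in the libraries (adjusted p = 0.0386), but not at equal length (adjusted p = 1). Transketolase (AT3G60750) was above, with 11.3%, 21.8% and 14.4% (adjusted p = 0.0417), also at equal length (0.00109). Of the Rubisco assembly factors, chaperones and scaffold proteins that build the holoenzyme, 4 of 10 were deep enough and 0 were called (median 8.37%). Of the photorespiration enzymes, which recycle the product of the oxygenase reaction of Rubisco, 8 of 10 were tested and 0 were called (median 7.91%). At an unadjusted p under 0.05, 0 genes of either of these lists were below or above, and by limma on logits 0 were called of the 1 assembly factor and 4 photorespiration enzymes that could be tested.

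The light-harvesting mRNAs of the LHCB1 and LHCB2 families, also abundant products of nuclear genes for the chloroplast, had a median of 8.62%. Of 8 genes, 1 was called below and 2 above, against 5.76% and 9.51% of all mRNAs tested. CAB3 was below, with 4.53%, 8% and 4.72% (adjusted p = 0.0316). LHCB2.1 was above, with 11.8%, 24.4% and 19.3% (adjusted p = 3.38e-08), and LHCB2.2 likewise, with 11.2%, 25% and 18.1% (3.74e-07), and these genes share 660 reads. At equal length 0 of the 8 were below, CAB3 included (adjusted p = 1), and 3 were above, where 7.82% of all mRNAs were. These were LHCB2.1 (adjusted p = 0.00169), LHCB2.2 (0.00244) and CAB1 (0.00324), the last named after its value was seen. By limma on logits 0 of the 6 tested LHCB genes and 0 of the 6 tested Calvin cycle genes of these lists were called. Tails longer than the library also occurred in these lists, with 0 genes called longer or shorter. The median difference was 3.08 As for the other Calvin cycle genes, 3.5 for photorespiration enzymes, 2.5 for LHCB genes and -0.333 for the 1 assembly factor. The largest differences were 7.33 As in a Calvin cycle gene and 6.83 As in PDE345, against 8.67 As in RCA.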

How the data were processed

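Per the labels, the 3 TAIL-seq libraries were made from total RNA of Col-0 flowers. The authors removed reads that repeated the first 15 cycles of the second read, mapped the first read (41 cycles) to TAIR10 with HISAT2 (version 2.1.0) and Bowtie2, assigned genes with BEDTools (2.17.5 in the submitters' notes), retained cytosolic mRNAs and recorded poly(A) stretches of at least 6 As, up to 91. The deposited values are lengths in nucleotides of the poly(A) stretch and of the added nucleotides, with 1 row per read and gene, not normalized. Of 455742 rows, 172 repeated a read and gene and were dropped. Reads given to several genes (2.15%) counted once for groups of genes and once for each gene otherwise.

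The 10 genes and the other lists were chosen with earlier results of these data known, and all 10 are named. Of the other lists, genes called by the uridylation test were named, at most the 2 lowest and 2 highest of each. Percentages have Wilson 95% intervals, and where 0 reads were found the limit is 3 reads, both covering counting error only. Tests across mRNAs were Cochran-Mantel-Haenszel tests on reads (Python 3.11.15, scipy 1.17.1, checked on simulated data) and limma 3.58.1 (R 4.3.3) on values per library (logits with an offset of 0.5), with a Benjamini-Hochberg threshold of 0.05. The comparison at equal length and its alternatives were reported beside the main test, its alternatives being added after the data were seen. Alternatives were leaving out each replicate, at least 2 added Us, other minima (10 and 50 reads), removal of shared reads or of the 3′RACE-seq mRNAs, other length measures, other tests and sampling down. All 10 loci matched RefSeq TAIR10.1, which gave positions and sequences. The deposited table was not combined with coordinates.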

Additional observations from a re-analysis of the deposited data

How the results depend on the processing

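No paired analysis was possible because the 3 libraries form 1 group, so no samples of different groups could be paired, and mRNAs were compared within libraries instead. Of the 10 mRNAs, 5 were called less uridylated than all other mRNAs. This became 3 with at least 2 added Us, 1 with limma on logits and 1 to 5 when a replicate was left out, the 1 being without replicate 1. GAPA also lost its call without replicate 2 (adjusted p = 0.165), with a minimum of 10 reads (0.0558) and with libraries sampled down (0.420). The count of more uridylated mRNAs went from 0 to 1 (RCA) with poly(A) length as a stratum. At equal length, 5 mRNAs were below, which became 3 without shared reads and 1 to 5 with a replicate left out. Longer tails were called for 0 mRNAs, 1 on mean lengths and 2 by van Elteren's test, and shorter tails for 0, and 3 by van Elteren's test. Of the 5 mRNAs more uridylated at 10 to 25 As, 1 (RCA) was called with at least 2 Us and 2 to 5 with a replicate left out. The members' mean of 6.96% ± 3.40 uridylated (SD, n = 3) was 2.095% for at least 2 Us and 5.23% to 8.63% with a replicate left out.

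Directions turned in mRNAs that had not been called. The log2 odds ratio of RCA (0.04) was -0.019 without the 3′RACE-seq mRNAs in the background and -0.11 to 0.44 with a replicate left out. PRK (-0.20) reached 0.36 with at least 2 Us, 0.43 with libraries sampled down and -0.87 to 0.17 with a replicate left out, and at equal length (-0.29) 0.39 with at least 2 Us and -1.14 to 0.27 with a replicate left out. SBPASE (-0.60) ranged from -1.82 to 0.67 and at equal length (-0.43) from -1.75 to 0.96 with a replicate left out, the highest being without replicate 1. The tail length difference of RBCS1A (0.33 As) was -0.036 on mean lengths and -0.50 to 1.00 with a replicate left out, the lowest being without replicate 1. The causes were not tested. Depth limited PRK, SBPASE and CP12-2, and no limma fit of tail length in all 3 libraries was made for them at 20 reads.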
